A study of Mus musculus with 10 samples.

Results

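The cytosolic ribosomal protein genes were compared between hearts of LPS-treated and saline-treated mice. LPS (lipopolysaccharide), a cell wall molecule of Gram-negative bacteria, is injected into mice as a model of sepsis. The study held 5 hearts taken 24 h after LPS and 5 hearts of saline-injected controls, all from C57BL/6 mice aged 8 weeks. The labels name no transgene, dose or sex, and they number the hearts 1 to 5 in each treatment. Members were the protein-coding rows of the count table whose symbols begin with Rpl or Rps followed by a subunit number, together with the stalk genes Rplp0, Rplp1 and Rplp2 and with Rpsa. The rule kept 80 of the table's 54532 genes, 49 of the large (60S) and 31 of the small (40S) subunit, and it used no measured value.

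The cytosolic ribosome translates nuclear-encoded mRNAs. Its small subunit reads the mRNA and its large subunit joins the amino acids, and the proteins of both are needed in matched amounts around the ribosomal RNAs. Mammalian ribosomal protein mRNAs are short and abundant, and they begin with a cytosine followed by a run of pyrimidines, the TOP motif, through which the kinase mTOR and the binding protein Larp1 control their translation. In heart and skeletal muscle the paralog Rpl3l is made beside or in place of Rpl3.

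The total count was between 14607969 and 17012372 reads per library. In the fit across all rows 13864 genes passed the filter on low counts, and 5533 of them (39.9%) had an adjusted p under 0.05 in edgeR's quasi-likelihood test, 2617 higher and 2916 lower after LPS. With scaling to total counts instead of TMM factors 53.9% were called, 1712 higher and 5764 lower, and the all-gene median of the log2 fold change was -0.30, against -0.02 with TMM. All 6 cardiomyocyte markers looked for were present, with a summed level of 38518 to 41645 CPM (counts scaled to library size with TMM factors) in LPS hearts and 35723 to 43332 CPM in saline hearts. Saline replicate 5 stood apart from the other saline libraries, with 23.0 CPM over 6 neutrophil markers against 1.29 to 4.01 CPM in the other saline libraries and 12.9 to 38.9 CPM in LPS libraries. None of the marker lists' part in the results below was tested.

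Few ribosomal protein mRNAs passed the test 24 h after LPS. Of the 80 members 77 passed the filter, and 4 of the 77 (5.19%) were called, 1 higher and 3 lower, in a comparison in which 39.9% of all tested genes and 40.3% of the 5994 genes averaging 20 CPM or more were called. The same 4 were the members with an unadjusted p under 0.05. The members' median log2 fold change was -0.10, against -0.02 over all tested genes, and 50 members lay below 0 and 27 above. Of the 77 members 75 lay within 1.5-fold of no change, and the 95% interval of 72 lay inside 2-fold in either direction. Over all tested genes that interval lay inside 2-fold for 66.8%, and for 81.0% of the genes with at least 20 CPM. Such a share also depends on how near fold changes lie to 0. The members' median standard error was 0.16, against 0.11 for genes with at least 20 CPM and 0.15 over all tested genes. A change of the same size was thus harder to call in members than in other genes of at least 20 CPM. The intervals of 52 members lay inside 1.5-fold. The 4 uncalled members whose interval passed a 2-fold limit were Rpl23a, Rpl41, Rps27 and Rps28, picked out here by the width of their intervals. Without saline replicate 5 again 1 member was higher and 3 lower.

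**Figure D1:**
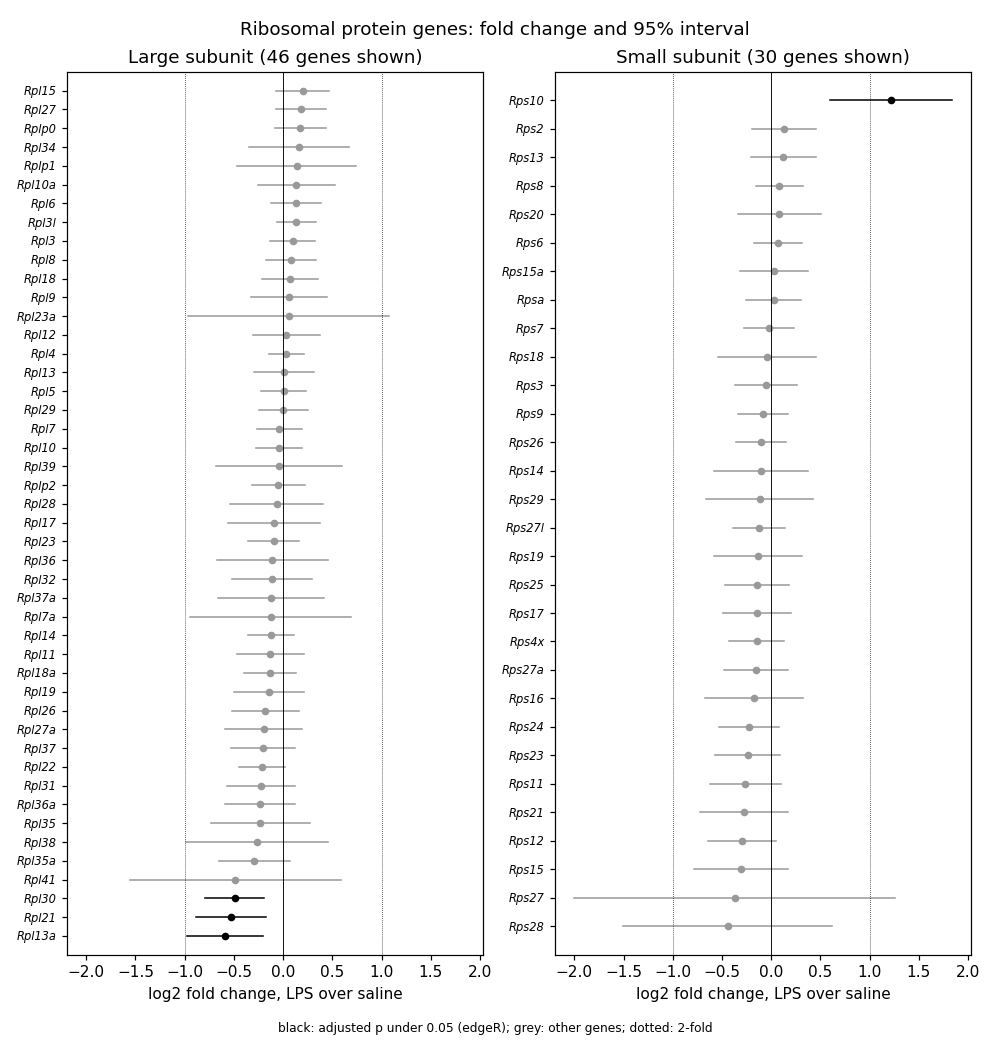
Log2 fold change (LPS over saline, horizontal axis) of the tested members, each with its 95% interval and 1 small subunit gene left out, large subunit at left and small subunit at right, sorted by value. Black marks the 4 called genes, Rps10 at 1.22 and Rpl30, Rpl21 and Rpl13a between -0.49 and -0.59, and grey points crowd around 0.

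The count of calls depended on scaling and on single libraries. With scaling to total counts 1 member was higher and 27 lower, where 12.3% of all tested genes were higher and 41.6% lower, and the members' median of -0.38 lay beside an all-gene median of -0.30. Relative to all genes the members' median was thus -0.08 on both scales. Without LPS replicate 1 there were 8 calls (1 higher and 7 lower), and without LPS replicate 2 or saline replicate 2 there were 2 (1 higher and 1 lower).

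By subunit, of the 46 tested large subunit genes 3 fell and none rose, and of the 31 small subunit genes 1 rose and none fell. Over all tested genes 18.9% rose and 21% fell, so both subunits had few calls in either direction. The median log2 fold changes of large and small subunit genes were -0.08 and -0.12. The ratio of summed large to summed small subunit counts was 1.27, 1.28, 1.27, 1.25 and 1.37 in LPS libraries 1 to 5, against 1.32, 1.24, 1.20, 1.24 and 1.25 in saline libraries 1 to 5. The groups overlapped, and LPS library 5 held the highest ratio.

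The 3 members that fell all belong to the large subunit. Rpl13a (ENSMUSG00000074129, chr7:45125558-45128761, minus strand, GRCm38) is known, beyond its place in the ribosome, for silencing the translation of inflammatory mRNAs in human monocytic cells. It had 4.91, 3.66, 6.76, 4.91 and 3.93 CPM in LPS libraries 1 to 5, against 6.52, 8.19, 7.91, 7.87 and 6.00 CPM in saline libraries 1 to 5. LPS library 3 lay among the saline values, and the others lay below them. Its log2 fold change was -0.59 ± 0.18 (SE; edgeR adjusted p = 0.0185), on 992 reads in all, 342 in LPS and 650 in saline libraries.

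Rpl21 (chr5:146832890-146837032) had 51.5, 35.7, 40.3, 54.0 and 32.9 CPM in LPS libraries, against 44.9, 75.6, 61.4, 69.5 and 58.2 CPM in saline libraries. Only saline library 1 lay within the LPS range. Its log2 fold change was -0.53 ± 0.16 (edgeR adjusted p = 0.0193). Rpl30 (chr15:34440505-34443640) had 63.6, 48.5, 49.0, 54.1 and 57.9 CPM in LPS libraries, against 61.3, 68.1, 65.3, 104 and 86.0 CPM in saline libraries, and the groups met only between LPS library 1 and saline library 1. Its log2 fold change was -0.49 ± 0.14 (edgeR adjusted p = 0.0123). The calls of Rpl13a and Rpl21 were lost without LPS replicate 2 (edgeR adjusted p = 0.0570 and 0.0578) and without saline replicate 2 (0.0601 and 0.0671), and that of Rpl21 also without LPS replicate 3 (0.0503).

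Rps10, a small subunit protein of the beak, was the member that rose. It had 14, 21, 26, 11 and 22 reads in LPS libraries 1 to 5, against 11, 12, 9, 10 and 9 reads in saline libraries 1 to 5. Scaled to library size, it was the only member whose groups did not overlap, where 28.4% of all tested genes did not overlap. Its log2 fold change was 1.22 ± 0.29 (edgeR adjusted p = 0.00394) on 145 reads in all. Nearly all reads of this sequence stood on another row, the processed pseudogene Rps10-ps2, which held 3920 reads, 1792 in LPS and 2128 in saline libraries.

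**Figure D2:**
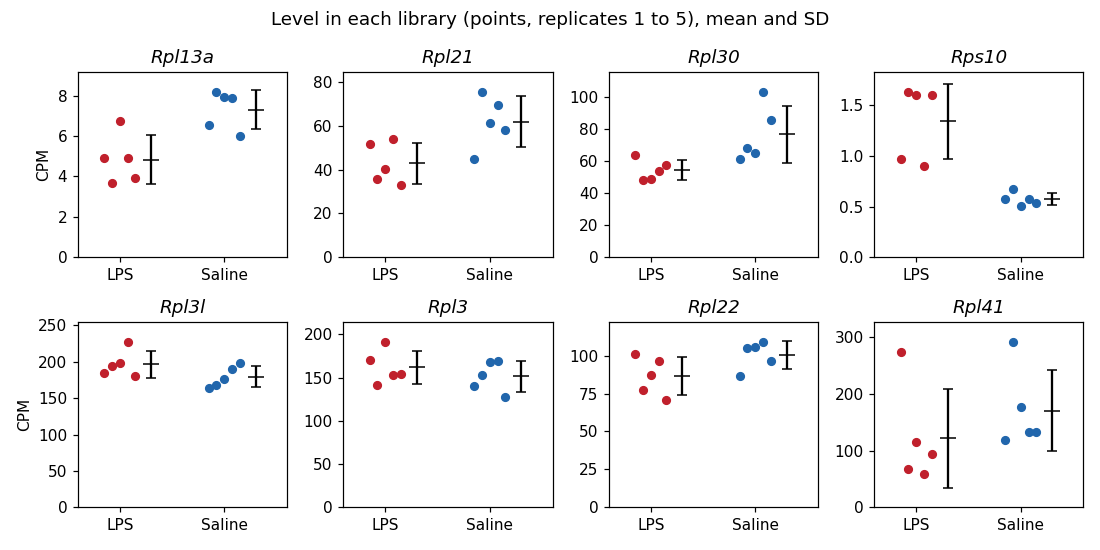
Level in CPM (vertical axis, from 0) of 8 members in each of the 5 LPS (red, left) and 5 saline (blue, right) libraries, with the mean and SD in black. Rps10 separates the groups, Rpl13a, Rpl21 and Rpl30 overlap by 1 or few libraries, and Rpl41 varies more within the groups than between them.

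Copies of these genes complicate every count. Mouse ribosomal protein genes have many processed pseudogenes, inserted DNA copies of the spliced mRNA, and reads that match several copies can be dropped or placed on any of them, depending on mapping settings that neither labels nor headers state. Every 50-base window of each member's coding sequence was looked up in the transcripts of all other annotated genes. In 66 of the 80 members over 50% of the windows occurred elsewhere as well, in 29 all of them did, and in 3 none did, Rpl3l and Rpl39l among them. The 882 rows taken as copies held 151297 reads, 7.61% of the sum with the members' own 1835805 reads. In 3 members, Rps10, Rpl17 and Rpl24, the copies held more reads than the member. Rpl17 had 5063 reads and its copies 18197.

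The stretches below show why such reads are hard to place. The coding sequences of Rps10 (chr17:27630418-27636669, minus strand) and Rps10-ps2 (chr16:20822145-20822640, minus strand) differed at 5 of 495 bases, all of them in this stretch of 90 bases (coding bases 384 to 473, GENCODE M21, GRCm38), where capitals mark the differing bases.
Rps10: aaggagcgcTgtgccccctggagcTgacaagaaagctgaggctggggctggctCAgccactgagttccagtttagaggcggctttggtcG
Rps10-ps2: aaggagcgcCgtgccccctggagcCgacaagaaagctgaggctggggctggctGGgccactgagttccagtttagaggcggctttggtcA
Rpl21 and Rpl21-ps15 (chrX:151215167-151215649, minus strand), the copy of Rpl21 with the most reads (3796), differed at 3 of 480 bases, 2 of them in coding bases 289 to 378, again in capitals.
Rpl21: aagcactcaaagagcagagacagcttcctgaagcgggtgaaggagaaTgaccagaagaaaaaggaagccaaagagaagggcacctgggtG
Rpl21-ps15: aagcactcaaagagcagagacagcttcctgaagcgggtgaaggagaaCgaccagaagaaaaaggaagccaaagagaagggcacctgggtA
The coding sequence of Rps27 (chr3:90212522-90213651, minus strand) was identical from its first to its last base to that of the intronless gene Rps27rt (chr9:114982366-114982739, minus strand), so its first 90 bases stand for both.
Rps27: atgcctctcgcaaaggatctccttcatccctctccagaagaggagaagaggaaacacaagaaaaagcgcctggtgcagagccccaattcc

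With the reads of the copies added to their member, 2 of 78 testable members were called, both lower, in a fit in which 40.6% of all genes were called (20.2% higher and 20.3% lower). Rpl13a was at -0.53 (edgeR adjusted p = 0.0316) and Rpl21 at -0.40 (0.0464). The copies of Rpl13a held 29 reads beside its own 992, so the sum could change its result little. Rps10 came to 42.4, 27.9, 30.3, 19.5 and 19.1 CPM in LPS libraries, against 24.4, 30.4, 28.8, 22.9 and 21.4 CPM in saline libraries. The groups then overlapped, and its log2 fold change was 0.14 ± 0.21 (edgeR adjusted p = 0.620). The log2 fold change of Rpl30 was -0.26 ± 0.13 (0.128). The median over members was -0.07. Summing the copies was chosen after the data were seen.

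**Figure D3:**
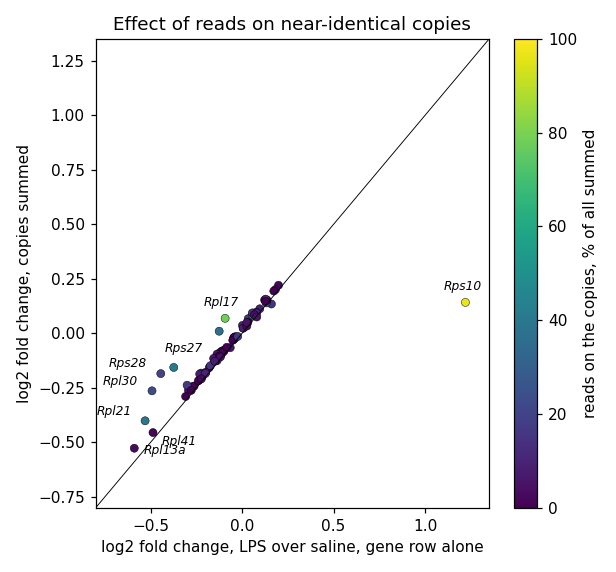
Log2 fold change (LPS over saline) of each tested member from its own row (horizontal axis) and with near-identical copies added (vertical axis); colour gives the share of summed reads that stood on the copies, and the line marks equal values. Most members lie near the line, while Rps10 moves to 0.14 from 1.22 on its own row.

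Rps27 was the least repeatable member. It had 1830, 919, 340, 1223 and 175 reads in LPS libraries 1 to 5, against 382, 2046, 2182, 1755 and 1206 reads in saline libraries 1 to 5. Rps27rt had 804, 347, 1402, 306 and 976 reads in LPS libraries, against 1418, 1178, 539, 570 and 690 reads in saline libraries. The libraries with few Rps27 reads (LPS 3, LPS 5 and saline 1) were thus the ones in which Rps27rt held most reads of the pair. Rps27 held 69.5%, 72.6%, 19.5%, 80.0% and 15.2% of the pair in LPS libraries, against 21.2%, 63.5%, 80.2%, 75.5% and 63.6% in saline libraries. The log2 fold change of Rps27 was -0.37 ± 0.71 (edgeR adjusted p = 0.718) on its own row and -0.16 ± 0.23 (0.624) with its copies.

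Members rose and fell together between libraries of one group. Of the 77 tested members 57 had their highest LPS value in library 1 and 66 their lowest in library 5. Among saline libraries 59 were highest in library 2 and 57 lowest in library 1. The median over members of the gene-centred log2 CPM was 0.33, -0.18, 0.09, 0.01 and -0.44 in LPS libraries 1 to 5, against -0.22, 0.27, 0.19, 0.10 and -0.11 in saline libraries 1 to 5. From highest to lowest library the members' median differed 1.71-fold among LPS and 1.40-fold among saline libraries. That is more than the difference between the group means of those medians, -0.04 for LPS and 0.05 for saline. All members together took 1.33%, 0.884%, 1.20%, 0.956% and 0.808% of total counts in LPS libraries, against 1.10%, 1.52%, 1.44%, 1.31% and 1.07% in saline libraries, and the groups overlapped. In TMM-scaled units the sum was 11366 ± 2131 CPM in LPS and 11695 ± 1566 CPM in saline hearts (SD, n = 5 each). In whole tissue, fewer cells of a type and less RNA per cell cannot be told apart.

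Other short mRNAs were high and low in the same libraries as the members. The 401 other protein-coding genes with at least 20 CPM and an mRNA of at most 1000 bases had medians of 0.25, -0.05, 0.09, 0.10 and -0.36 in LPS libraries, against -0.12, 0.07, 0.05, 0.04 and -0.05 in saline libraries. In each of the 10 libraries this median lay on the same side of 0 as that of the members. The 4294 genes with mRNAs over 2000 bases had medians of -0.01, 0.07, 0.05, 0.06 and 0.11 in LPS libraries, against -0.02, -0.09, -0.08, -0.06 and 0.05 in saline libraries. This median lay on the same side of 0 as that of the members in LPS libraries 3 and 4 and saline library 1, and on the other side in the other 7 libraries. These gene classes were chosen after the data were seen, and the part of mRNA length, RNA quality or library preparation in the members' spread was not tested. Within members the log2 SD inside groups was lower for longer mRNAs (Spearman's rho = -0.51 across 77 genes that share the same 10 libraries). It was highest for Rps27 (1.29), Rps28 (0.78), Rpl23a (0.73) and Rpl41 (0.72) and lowest for Rpl4 (0.10) and Rpl3l (0.12). The log2 fold change of members ran with mRNA length (rho = 0.31) and with mean CPM (rho = 0.36), beside -0.02 for length over 12592 protein-coding genes and 0.27 for mean CPM over all tested genes.

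**Figure D4:**
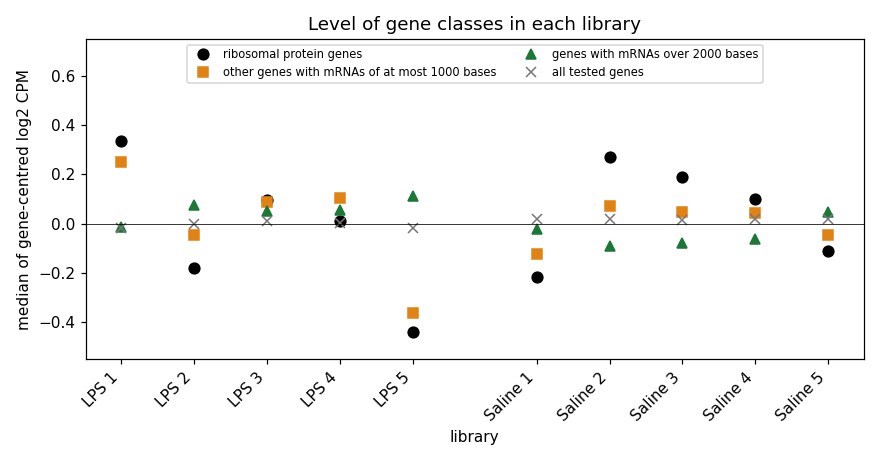
Median of gene-centred log2 CPM (vertical axis) in each library, LPS at left and saline at right, for the 77 tested members, 401 other genes with short mRNAs, 4294 genes with long mRNAs and all 13864 tested genes. Members range from -0.44 to 0.33 within the LPS group and from -0.22 to 0.27 within saline, while the median of all genes stays near 0.

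Levels per kilobase of mRNA (CPM per kb of the annotated principal transcript, mean over all 10 libraries) were highest in the small subunit for Rps2 (498), which lines the mRNA entry channel, Rps14 (420), at the mRNA exit, and Rps15 (365). In the large subunit they were highest for Rplp0 (465), the base of the stalk, Rplp1 (346) and Rpl41 (334). The lowest tested members were Rps10 (1.92), Rps20 (27.1) and Rps16 (80.6) in the small subunit and Rpl13a (5.79), Rpl7a (33.3) and Rpl17 (41.0) in the large subunit. Rps20 and Rps16 were set against annotated transcripts of 3706 and 1109 bases, far longer than their coding sequences. These levels use each member's own row. Of the reads summed with the copies, the copies held 96.6% for Rps10, 78.2% for Rpl17 and 36.1% for Rpl7a. They held 14.4% for Rps16, 10.5% for Rps20 and 2.84% for Rpl13a. How far the placing of reads lowered these levels was not tested.

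Counted by place in the ribosome, 2 members were called, Rps10 in the beak and Rpl13a, listed for its role outside the ribosome. Over all tested genes 39.9% were called, the share to set beside each place named below. The 4 stalk genes, whose proteins recruit elongation factors, had 0 calls and a median log2 fold change of 0.08. Rplp0, the most abundant member by reads, had 722, 600, 847, 671 and 510 CPM in LPS libraries, against 518, 636, 634, 602 and 580 CPM in saline libraries (log2 fold change 0.17 ± 0.12, edgeR adjusted p = 0.283). Its LPS values spread on both sides of the saline values. Rplp1 was at 0.14 ± 0.27, Rplp2 at -0.05 ± 0.13 and Rpl12 at 0.03 ± 0.16. Rpl5 and Rpl11, which bind the 5S RNA and can restrain the p53 ligase Mdm2 when assembly stalls, were at 0.01 ± 0.11 and -0.13 ± 0.16.

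Next to the peptidyl transferase centre, where peptide bonds form, 4 of 5 genes could be tested and none was called. They were Rpl3 (0.10 ± 0.11), Rpl3l (0.13 ± 0.09), Rpl8 (0.08 ± 0.12) and Rpl10 (-0.04 ± 0.11). Around the exit tunnel for the new peptide 8 of 9 genes could be tested and none was called, with a median of -0.12. Rpl4, which forms the tunnel's narrow part, was the most repeatable member. It had 446, 423, 434, 449 and 413 CPM in LPS libraries, against 380, 468, 408, 459 and 404 CPM in saline libraries, with a log2 fold change of 0.03 ± 0.08. Its saline values spread on both sides of the LPS values. On the tunnel's rim Rpl23a (0.06 ± 0.45) ranged between 20.9 and 118 CPM in LPS libraries and 39.5 and 60.2 CPM in saline libraries. Rpl17 was at -0.09 ± 0.21, Rpl19 at -0.15 ± 0.17, Rpl26 at -0.18 ± 0.16, Rpl31 at -0.22 ± 0.16, Rpl35 at -0.23 ± 0.23 and Rpl39 at -0.05 ± 0.29.

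In the small subunit, Rps2 (0.13 ± 0.15) and Rps3 (-0.05 ± 0.15) at the mRNA entry and Rps15 (-0.31 ± 0.22) and Rps23 (-0.24 ± 0.15) near the decoding site were not called. At the mRNA exit Rps14 (-0.11 ± 0.22), Rps26 (-0.10 ± 0.12), Rpsa (0.03 ± 0.13) and Rps28 (-0.44 ± 0.47) were not called either. Rps28 lies over Kank3, on the opposite strand, which held 4198 reads where Rps28 held 3650, and without a stated strand the reads of such neighbours cannot be told apart. In the beak Rps12 (-0.30 ± 0.16) and Rps27a (-0.16 ± 0.15), which is made as a fusion with ubiquitin, were not called beside Rps10. Rps6, the substrate of the S6 kinases downstream of mTOR, had 328, 282, 349, 325 and 251.6 CPM in LPS libraries, against 238, 336, 299, 307 and 285 CPM in saline libraries (0.07 ± 0.11, edgeR adjusted p = 0.670), and the groups overlapped.

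Rpl3l, the muscle paralog, was counted at a level close to that of Rpl3. Rpl3l had 184, 194, 198, 227 and 180 CPM in LPS libraries 1 to 5, against 164, 168, 177, 189 and 199 CPM in saline libraries 1 to 5. Rpl3 had 170, 141, 191, 153 and 155 CPM in LPS libraries, against 140, 153, 167, 169 and 127 CPM in saline libraries. The groups overlapped for both. Per kilobase Rpl3l averaged 143 ± 13.5 CPM in LPS and 130.5 ± 10.5 CPM in saline hearts, and Rpl3 averaged 120 ± 14.3 and 112 ± 13.1 CPM (SD, n = 5 each). Rpl3l held 54.9% ± 3.81 of the reads of the pair in LPS hearts and 54.3% ± 3.82 in saline hearts (exact permutation test, two-sided, p = 0.881). The pair can be told apart by reads. However, 95.7% of the coding windows of Rpl3 occurred in other genes, and none of those of Rpl3l did. The copies of Rpl3 held 2432 reads. Handling of multiply mapped reads can thus lower the count of Rpl3 alone, and its part in these shares was not tested. Compared base by base from the start codon, the coding sequences differed at 321 of 1209 bases, and 21 of the first 90 bases, shown in capitals, differed.
Rpl3l: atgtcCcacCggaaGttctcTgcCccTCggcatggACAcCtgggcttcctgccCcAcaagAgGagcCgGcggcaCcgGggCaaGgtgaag
Rpl3: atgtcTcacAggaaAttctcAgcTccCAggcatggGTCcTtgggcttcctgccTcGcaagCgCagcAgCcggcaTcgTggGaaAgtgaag
Rpl3l lies at chr17:24727820-24736143 on the plus strand and Rpl3 at chr15:80077791-80091868 on the minus strand. Syngr1, on the strand opposite to Rpl3, overlaps it and held 6069 reads where Rpl3 held 24854.

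The share of the paralog was tested in 5 of 8 pairs. Rpl22l1, a paralog of Rpl22 that carries its own symbol and falls outside the member rule, held 7.18%, 6.21%, 3.92%, 4.17% and 4.13% of the reads of the pair in LPS libraries, against 2.41%, 2.98%, 2.98%, 2.84% and 2.41% in saline libraries. The groups did not overlap, and the share averaged 5.12% ± 1.48 in LPS and 2.72% ± 0.293 in saline hearts (exact permutation test, two-sided, n = 5 each, p = 0.00794, the smallest the design allows, adjusted p = 0.0397 over 5 pairs). Rpl22l1 itself had 7.82, 5.13, 3.56, 4.18 and 3.05 CPM in LPS libraries, against 2.14, 3.23, 3.25, 3.18 and 2.38 CPM in saline libraries. LPS library 5 lay among the saline values, and the gene rose (log2 fold change 0.74 ± 0.25, edgeR adjusted p = 0.0309). That call was lost with the replicate number as a block (0.0641), without LPS replicate 1 (0.0941) or 2 (0.0578), without saline replicate 1 (0.0687) and with upper quartile (0.0778) or total count scaling (0.146). Rpl22 was at -0.22 ± 0.11 (edgeR adjusted p = 0.134), with 101, 77.6, 87.4, 96.1 and 70.8 CPM in LPS libraries, against 86.6, 105, 106, 109 and 96.3 CPM in saline libraries.

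Rpl7l1, an assembly factor related to Rpl7, held 14.6% ± 1.67 of its pair in LPS and 12.1% ± 1.42 in saline hearts (exact permutation test, two-sided, n = 5 each, p = 0.0397, adjusted p = 0.0992). Rpl7l1 itself rose (0.27 ± 0.08, edgeR adjusted p = 0.0148), beside -0.04 ± 0.11 for Rpl7. Scaled to total counts Rpl7l1 was at 0.0012 (edgeR adjusted p = 0.993). Rps27l held 48.2% ± 21.8 of its pair with Rps27 in LPS and 40.5% ± 16.3 in saline hearts (exact permutation test, n = 5 each, p = 0.548, adjusted p = 0.685). That share was highest in LPS libraries 3 and 5 and saline library 1, where Rps27rt held more reads than Rps27. The part of read placing in it was not tested. Rps4l, listed here as a pseudogene, held 6.80% ± 1.04 of its pair with Rps4x in LPS and 6.08% ± 0.894 in saline hearts (exact permutation test, n = 5 each, p = 0.222, adjusted p = 0.370). Rpl10l, the testis paralog of Rpl10, had 0 reads in all 10 libraries. Rpl39l, also a testis paralog, had 9 reads in LPS and 4 in saline libraries. Rpl36al, which falls outside the member rule, had 4 in LPS and 12 in saline libraries. Rpl24, whose coding windows all occurred in other genes, had 28 reads in LPS and 52 in saline libraries, and these untested genes are given as counts alone.

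The motif behind the TOP rule was looked for in the RefSeq start windows (GRCm38.p6), of which 60 of the 80 members had one. The letters CTTTCC stood within 25 bases on either side of the start, on the gene's strand, in 11 of 60 members (18.3%) and in 777 of 26965 other genes (2.88%). On the opposite strand they stood in 1 member (1.67%) and in 2.60% of other genes. Over all 32851 windows the share on the gene's strand was 2.46%. The shorter CTTCC, which is no part of CTTTCC but can share an end base with it, stood in 17 members (28.3%) and 12.3% of other genes on the gene's strand. The windows of 4 members with CTTTCC near the annotated start, the called Rps10 and Rpl35, Rpl28 and Rpl38, are shown beside that of the paralog Rpl3l, which holds no CTTTCC in this stretch, each from 20 bases before the start to 15 bases from it on, with the motif in capitals.
Rps10: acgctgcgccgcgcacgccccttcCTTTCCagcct
Rpl35: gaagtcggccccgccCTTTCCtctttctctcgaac
Rpl28: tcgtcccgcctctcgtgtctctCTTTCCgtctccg
Rpl38: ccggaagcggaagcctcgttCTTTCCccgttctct
Rpl3l: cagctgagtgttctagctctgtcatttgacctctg
The window of Rps10 is chr17:27635230-27635264 (minus strand), that of Rpl35 chr2:39005117-39005151 (minus), that of Rpl28 chr7:4792945-4792979 (plus), that of Rpl38 chr11:114668560-114668594 (plus) and that of Rpl3l chr17:24727806-24727840 (plus). A match is a description of letters near an annotated start, and starts in the annotation can be off by some bases. Of the members with the motif shown here, Rpl35 was at -0.23 ± 0.23, Rpl28 at -0.06 ± 0.22 and Rpl38 at -0.27 ± 0.32 on the log2 scale, none of them called.

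Many genes that build ribosomes rose. Of 64 assembly factor genes 34 (53.1%) rose and none fell, in a comparison in which 18.9% of all tested genes rose and 21% fell, with a median log2 fold change of 0.39. Nol10, a nucleolar assembly factor, had 27.5, 36.6, 27.1, 37.8 and 35.6 CPM in LPS libraries, against 10.2, 8.19, 10.5, 8.28 and 14.3 CPM in saline libraries (1.68 ± 0.16, edgeR adjusted p = 2.91e-06). Wdr43, of the small subunit processome, had 73.7, 78.9, 76.9, 78.4 and 90.9 CPM in LPS libraries, against 23.4, 24.2, 22.2, 23.5 and 35.8 CPM in saline libraries (1.63 ± 0.13, edgeR adjusted p = 6.49e-07). The groups did not overlap for either, and saline library 5 was the highest of its group for both. With total count scaling 16 of the 64 rose and 4 fell, beside 12.3% and 41.6% of all tested genes, and without saline replicate 5 36 rose and none fell. Among RNA polymerase I genes, which transcribe ribosomal RNA, 1 of 12 rose (Rrn3, 0.28 ± 0.09) and 3 fell, with Ttf1, which ends such transcripts, at -0.70 ± 0.17 and Ubtf, which opens ribosomal DNA, at -0.63 ± 0.10. With total count scaling none of the 12 rose and 5 fell, and Rrn3 was no longer called (edgeR adjusted p = 0.944). Of 5 tested chaperones of single ribosomal proteins, Grwd1 (0.79 ± 0.15), which binds Rpl3, and Heatr3 (0.33 ± 0.10), which binds Rpl5, rose. With total count scaling 1 of the 5 rose and 1 fell, and Heatr3 was no longer called (edgeR adjusted p = 0.720).

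Of 13 tested regulators of TOP mRNA translation and ribosome synthesis 5 rose and 1 fell, and with total count scaling 3 rose and 5 fell. Larp1, which binds the TOP motif, had 187, 180, 154, 150 and 179 CPM in LPS libraries, against 84.7, 74.4, 76.9, 71.1 and 103 CPM in saline libraries (1.05 ± 0.11, edgeR adjusted p = 7.77e-06). Myc, a transcription factor that drives ribosome synthesis, had 35.6 to 45.9 CPM in LPS libraries and 2.78 to 14.6 CPM in saline libraries, with saline library 5 the highest of its group (2.89 ± 0.48, edgeR adjusted p = 0.00131, and 3.65 without that library). Eif4ebp2, a repressor of cap-dependent translation, fell (-0.59 ± 0.09), while Eif4ebp1 of the same family rose (0.40 ± 0.12, edgeR adjusted p = 0.0132). With total count scaling they were at -0.87 and 0.13. Of 17 elongation factors and other TOP mRNAs 3 (17.6%) rose and none fell, with a median of 0.01, where 18.9% of all tested genes rose and 21% fell. With total count scaling 1 of the 17 rose and 9 fell (10 called, 58.8%), with a median of -0.26 beside the all-gene median of -0.30 on that scale. Pabpc1, the poly(A)-binding protein, was at 0.65 ± 0.11 and the nucleolar chaperone Npm1 at 0.37 ± 0.11, while the elongation factors Eef2 (0.01 ± 0.08) and Eef1a1 (-0.07 ± 0.10) were not called. With total count scaling Pabpc1 was at 0.39 (edgeR adjusted p = 0.0123) and Npm1 at 0.10 (0.417).

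Mitochondrial ribosomal protein genes, which serve a separate ribosome, had 2 of 77 called (2.60%), both higher, with a median of 0.04. Over all tested genes 39.9% were called, 18.9% higher and 21% lower. The 2 called genes were Mrpl52 (0.49 ± 0.14) and Mrpl3 (0.26 ± 0.08). With total count scaling none of the 77 rose and 23 fell (29.9%), with a median of -0.23, where 12.3% of all tested genes rose and 41.6% fell. On that scale Mrpl52 was at 0.21 (edgeR adjusted p = 0.261) and Mrpl3 at -0.014 (0.894). Of 6 tested ribosomal proteins under other symbols, Rpl22l1 and Rpl7l1 rose with TMM, where 18.9% of all tested genes rose. Fau (-0.14 ± 0.23), made as a fusion with a ubiquitin-like protein, and Rps3a1 (0.05 ± 0.11) were not called. In the authors' deposited table of Reactome terms 4 members are listed as differential under any term, Rpl13a, Rpl21, Rpl30 and Rps10, the same 4 as here. The match is by name only, in data of the same study. Here 3 of the 4 fell and 1 rose, and the authors' directions for these 4 were not compared. In the authors' deposited table the term Translation holds 27 differential genes of 154, 26 up and 1 down (the authors' adjusted p = 1). Eukaryotic Translation Initiation holds 16 of 59, 15 up and 1 down. Formation of a pool of free 40S subunits holds 7 of 43, 7 up and 0 down, and Mitochondrial translation 7 of 86, 7 up and 0 down. Which of these terms list the 4 members is not given here.

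**Figure D5:**
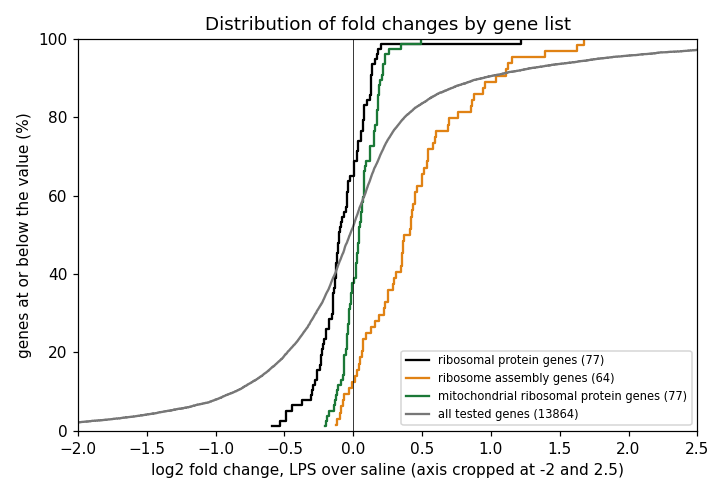
Cumulative share of genes (vertical axis, percent) at or below a log2 fold change (LPS over saline, horizontal axis) for 77 ribosomal protein genes, 64 ribosome assembly genes, 77 mitochondrial ribosomal protein genes and all 13864 tested genes. The curves of both kinds of ribosomal protein are steep around 0, with medians of -0.10 and 0.04, and that of the assembly genes lies to the right, with a median of 0.39.

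Markers of other cells moved between the groups as well, where 18.9% of all tested genes rose and 21% fell. The 5 endothelial markers summed to 436 to 558 CPM in LPS hearts and 731 to 1293 CPM in saline hearts, and all 5 fell. The value of 731 CPM was that of saline library 5, and the other saline libraries held 1115 to 1293 CPM. The 6 macrophage markers summed to 294 to 415 CPM in LPS and 400 to 570 CPM in saline hearts, and 3 fell. Of 6 neutrophil markers 4 could be tested and 2 rose, and without saline replicate 5 all 4 rose. The 7 lymphocyte markers summed to 0.655 to 1.75 CPM in LPS and 1.43 to 4.40 CPM in saline hearts, too low to be tested. The 5 erythroid markers (381 to 783 CPM in LPS and 359 to 728 CPM in saline hearts) had no call, and of the 5 fibroblast markers (854 to 1120 CPM in LPS and 966 to 1104 CPM in saline hearts) 1 fell. No marker was at 0 in all libraries. The part of these cells in the changes of assembly and regulator genes was not tested.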

How the data were processed

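RNA-seq of 10 mouse hearts was used. The authors deposited read counts per gene, 1 column per library. Bowtie 0.12.2 and mm9 stand in the submitters' processing notes, without a role. For the counter, annotation, read length, strand and multiply mapped reads the sources used here give no statement. Of the 80 members' coordinates 78 equal those of GENCODE M21 (GRCm38), which is used here. The authors' FPKM columns, 30 over all tables and in part named for 3 h, were not used. The deposited Reactome table's p-values, adjusted p-values and numbers of genes are the authors' own.

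Counts were fitted with edgeR 4.0.16 (R 4.3.3; filterByExpr with minimum count 10 and minimum total count 15, TMM, robust quasi-likelihood F-test, Benjamini-Hochberg adjustment over all 13864 tested genes, threshold 0.05), without covariates. SE and 95% intervals derive from the F statistic and its degrees of freedom. The fit was tested on simulated data. CPM use TMM-scaled library sizes, and 0.5 CPM was added before centring log2 values per gene. Paralog shares were compared by exact permutation over 252 assignments. A copy is a pseudogene row or a non-member Rpl or Rps row that shares at least 10 windows of 50 bases with a member's coding sequence on either strand, assigned to the member with which it shares most. Overlapping genes were listed from 100 reads on. Sequences are from GENCODE M21 transcripts and RefSeq start windows (GRCm38.p6).

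Named members were the 8 highest and 8 lowest fold changes among those called, all paralog pairs, all role groups and the 3 highest and 3 lowest levels per kilobase in each subunit. Of every other list the 2 largest rises and 2 largest falls were named. Others, such as Rpl28, Rpl38, Eef2 and Fau, were chosen after their values were seen. Some genes are not reported here. Members and lists were chosen with earlier results of these data known. P-values measure the spread between libraries that the labels number as separate mice. Replicate numbers did not pair libraries across groups (correlation of deviations -0.09 to 0.22). Alternatives were other scalings, filters, DESeq2 1.42.0, limma voom (limma 3.58.1), a replicate block, leaving out each library and summing copies.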

Additional observations from a re-analysis of the deposited data

Results flagged for a closer look

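Of 100 groups of 5 libraries examined (named members, summed measures and paralog shares, in each treatment), 6 held a library far from the other 4, and chance gives about 1 in 20. Rpl41 was at 272 CPM in LPS library 1, against 57.9 to 115 CPM in the other LPS libraries. Rpl7a was at 63.1 CPM in saline library 2, against 21.8 to 28.3 CPM in the other saline libraries. The ratio of summed large to small subunit counts was 1.37 in LPS library 5, against 1.25 to 1.28 in the other LPS libraries. The share of Rpl3l in its pair with Rpl3 was 60.9% in saline library 5, against 51.4% to 53.9% in the other saline libraries. Rps27l held 69.2% of its pair with Rps27 in saline library 1, against 30.9% to 38.2% in the other saline libraries, and in that library most reads of the Rps27 sequence stood on Rps27rt. Rps4l held 7.66% of its pair with Rps4x in saline library 1, against 5.57% to 5.91% in the other saline libraries.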

How the results depend on the processing

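Against 4 members called, RLE scaling, DESeq2, limma voom, no filter on low counts and the replicate block gave 4 as well (the samples share only a number, and 1 of 5 LPS libraries correlated best with the saline library of its number). A filter of 1 CPM in 5 libraries gave 3, upper quartile scaling 10, total count scaling 28, total count scaling without mitochondrial genes 34 and copies summed 2; leaving out 1 library gave 2 to 8. The members' median log2 fold change was -0.38 with total count scaling and -0.37 with total count scaling without mitochondrial genes, where the all-gene median was -0.30 and -0.29; leaving out 1 library gave -0.21 to 0.02. Members of role groups called were 2, and 1 with the 1 CPM filter or copies summed, 4 with upper quartile scaling, 11 with total count scaling, 14 with it without mitochondrial genes and 1 to 3 with 1 library left out. Spearman's coefficient between log2 fold change and length was 0.24 to 0.42 with 1 library left out. The difference in the Rpl22l1 share (LPS minus saline, in percentage points) was 2.40, and 1.88 to 2.70 with 1 library left out. Whichever saline library was left out, the adjusted p of the exact permutation test lay above 0.05, in a design with fewer assignments. All genes called ranged between 4785 and 6208 with 1 library left out. Under total count scaling, with and without mitochondrial genes, Rpl4 was at -0.24 and -0.24 and passed the threshold, and Mrpl3 was at -0.014 and -0.0056. Over all settings 1103 values of single named genes kept their side of the threshold, 36 no longer passed it and 36 newly passed it. These 4 both crossed the threshold and changed sign. Changes of sign among values that kept their side of the threshold were not counted. The cause of these shifts was not tested beyond the all-gene medians given. Differences in members below about 1.5-fold were not detectable where intervals were wide. Results of members with few reads of their own (Rps10, Rpl13a, Rpl24) are limited by those counts. The part of multiply mapped reads in these low counts was not tested.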
